A study of Mus musculus with 12 samples.

Results

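Gene expression of the mouse osteoblast line 2T3 was compared between 2 culture states, called C0 and low, on 6 of the 12 one-colour spotted arrays of the series. The members are all arrays whose titles name 2T3 C0 (3 arrays) or 2T3 low (3 arrays). The line comes from a transgenic mouse in which the BMP-2 promoter drives the SV-40 T antigen, so both states carry the same transgene, and every value describes 1 immortalised line. The labels contrast sparse with confluent osteoblasts without defining C0, and it is taken here for the confluent state because its counterpart is called low. The labels state no culture time, medium or added agent. The other 6 arrays hold the osteocyte line MLO-Y4, from a mouse in which the osteocalcin promoter drives T antigen, and entered the fit as the groups low and high. Array numbers run from 1 to 3 per group, and nothing says whether a number stands for a separate culture. The p-values therefore reflect the spread among these arrays alone, and that spread may be technical.

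Osteoblasts build bone matrix, and in culture they pass from spread, dividing, contractile cells to a crowded layer in which matrix is laid down and mineralised. Crowding is sensed partly through the actin skeleton. In spread cells the coactivators YAP and TAZ enter the nucleus, bind TEAD factors and switch on genes such as Ccn1 and Ccn2, and in crowded cells they are held in the cytoplasm. Serum response factor, which follows the pool of free actin, drives genes of contraction such as Tagln and Acta2.

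Deposited intensities had medians from 4 (low array 3) to 55 (C0 array 3) and totals from 212491 to 1680311 over 5030 spots in the 2T3 arrays. Arrays were scaled to a common median over the 1253 spots above the detection limit on all 12 arrays, an array's limit being the size of its lowest value. Scaled values were floored at 4.15, and values at the floor have no order. Between 50.9% (low array 3) and 74.8% (low array 1) of spots were above the limit on a 2T3 array. With 3 arrays per state, precision is limited. Low array 3 was multiplied by 4.85, so 1 deposited unit is 4.85 scaled units there. The 2T3 arrays did not sort by density. The 4 arrays numbered 2 and 3 had Spearman correlations from 0.840 to 0.879 with each other across spots. The arrays numbered 1 had correlations from 0.659 to 0.738 with those 4 and of 0.590 with each other. C0 array 2 was closest to low array 2 (0.879), not to another C0 array.

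**Figure D1:**
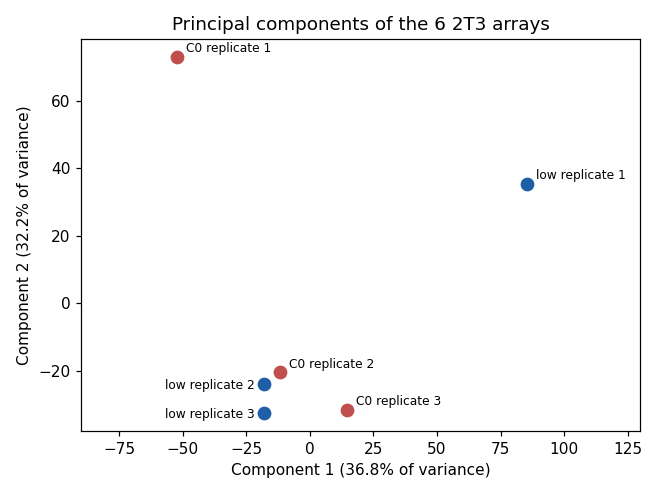
Position of the 6 2T3 arrays on the first 2 principal components of the log2 scaled intensities, with C0 in red and low in blue, and with the share of the variance on each axis (36.8% and 32.2%). C0 replicate 1 and low replicate 1 lie far from the other 4 arrays and from each other, and the other 4 arrays of both densities lie together.

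No spot passed the test between C0 and low. With limma (4 group means over all 12 arrays, two-sided, Benjamini-Hochberg over the 5030 spots, threshold 0.05), 0 were higher in C0 (0% called) and 0 were higher in low (0% called), and the smallest adjusted p was 0.281. An unadjusted p under 0.05 was reached by 219 spots (4.35%), 100 on the C0 side (1.99%) and 119 on the low side (2.37%), where 251.5 are expected by chance. A count of 0 at this spread and number of arrays does not show that the states were alike. Intervals of single genes were wide, as for the alkaline phosphatase gene Alpl, whose C0 minus low log2 difference of 0.14 had a 95% interval from -2.08 to 2.37. The count depended on the floor. With a floor at the 40th percentile (scaled intensity 10.4) 4 spots passed on the C0 side and 1 on the low side, and with the floor at the highest limit of a 2T3 array 5 and 1. An exact permutation test over 3 against 3 arrays cannot go below p = 0.1.

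**Figure D2:**
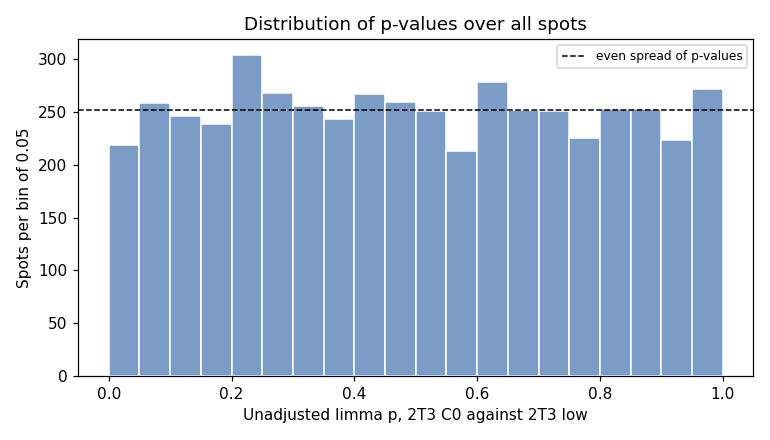
Histogram of the unadjusted limma p-values of the 5030 spots for 2T3 C0 against 2T3 low in bins of 0.05, with the even spread of 251.5 spots per bin as a dashed line. The first bin, which holds the smallest p-values, lies below the dashed line.

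The values below are therefore descriptions of these 6 arrays, given in the order array 1, 2 and 3. Standard errors (SE), intervals and p-values come from the fit over all 12 arrays and so take in the spread of the MLO-Y4 arrays. The 2 states are said not to overlap for a gene when all 3 arrays of the brighter state lay above all 3 of the other and above their own limits. That held for 166 of 4605 genes on the C0 side (3.6%) and for 166 on the low side (3.6%), and every count of a gene list is to be read against these shares. With equal array medians the shares were 3.19% on the C0 side and 2.69% on the low side, and with quantile normalization 4.6% and 2.91%. Without the arrays numbered 1, with 2 arrays against 2, they were 18.8% and 9.99%. A gene that is dim in both states cannot count, and only 1795 of the 4605 genes were above the limit on all 6 arrays. In the lists below, 30 of 31 ribosomal protein, 20 of 20 respiration, 30 of 35 actin and 12 of 17 YAP and TEAD genes were. The share among genes so detected was not taken, so 3.6% may be too low a yardstick for such lists. The median C0 minus low log2 difference over all genes was -0.12. Over all spots it was -0.13, against -0.036 with equal array medians and -0.010 with quantile normalization, so differences of that size shift with the scaling.

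The smallest p belonged to S1pr3, a receptor for the lipid mediator sphingosine 1-phosphate. Its scaled intensity was 17.5, 9.86 and below the limit in C0 and 79.4, 61.7 and 72.8 in low. All low arrays were at least 3 times as bright as any C0 array, and the low mean was 7.93-fold the C0 mean (log2 -2.99, SE 0.50, limma adjusted p = 0.281). It was the 1 spot that passed on the low side with either higher floor (limma adjusted p = 0.00156 and 2e-05). Casq1, which encodes a calcium store protein of muscle, read below the limit, 7.26 and below the limit in C0 and 165, 33.7 and 43.7 in low (log2 -3.20, SE 0.78). Khdrbs3, an RNA-binding protein gene, had means of 6.60 and 27.9, and Agtrap, whose product binds the angiotensin receptor, 170 and 803. The other genes among the 10 smallest p on this side were Ccn1 and Tagln, described with their groups, and 4 dim ones, Tph1, Zbtb17, Npy1r and Fcgr3, whose low means lay from 12.5 to 18.9 and whose C0 means lay at or just over the floor.

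On the C0 side the smallest p belonged to Omd, the gene of the bone matrix proteoglycan osteomodulin. It read 44.5, 24.9 and 40.9 in C0, and 8.82 on low array 2 with the other low arrays below the limit. The groups did not overlap (log2 difference 2.32, SE 0.43, 95% interval 1.37 to 3.28, limma adjusted p = 0.281). Mef2a, a transcription factor gene best known from muscle, had means of 46.1 in C0 and 9.61 in low. Mab21l2, a developmental gene, had 73.3 and 10.3. Siah1a, a ubiquitin ligase gene, had 27.1 and 5.79. In low, Mef2a, Mab21l2 and Siah1a were above the limit on array 2 alone, so their low means rest largely on values under the limit. With the floor at the 40th percentile Omd, Siah1a, Mab21l2 and Gria3 passed (limma adjusted p from 0.00156 to 0.0478). With the floor at the highest 2T3 limit Siah1a, Mab21l2, Barx1, Adam10 and Mxi1 passed (0.00639 to 0.0349). Barx1 and Mxi1 were chosen after their values were seen.

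The following 4 genes were below the limit on every low array, so only a bound can be given. The growth-response factor gene Egr3 read 43.7, 11.4 and 47.2 in C0 and was at least 2.56-fold brighter there. Naa80, whose product acetylates actin, was at least 3.29-fold brighter, the calcium channel subunit gene Cacna2d1 at least 2.10-fold and the glutamate receptor gene Gria3 at least 2.22-fold. Each of these spots was dim in C0 too, with C0 means from 23.5 (Cacna2d1) to 36.8 (Naa80).

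Target genes of YAP and TEAD lay on the low side. Of 17 measured members of this list, 6 did not overlap with low brighter, against 3.6% of all genes, and 0 with C0 brighter. None passed the test. The median difference over the list was -0.56, against -0.12 over all genes. Between arrays of 1 state the list's median had a standard deviation of 0.42. The 6 were Ccn1, Ccn2, Ankrd1, Gadd45b, Ajuba and Axl. The list also holds Yap1, Tead1, Tead2 and Tead4, which are the coactivator and its TEAD factors and no targets, and all of these overlapped. With equal array medians 4 did not overlap on the low side and with quantile normalization 5. Without the arrays numbered 1 there were 7 with low brighter and 2 with C0 brighter (9.99% and 18.8% of all genes). For the promoters of these genes, the RefSeq table of starts (GRCm38.p6) held 5 of the 6, and Ccn2 was not in it. The letters GGAATG, the core that TEAD factors bind, were searched on both strands in the 250 bases before each start. They were found in 4 of the 5, which are printed below because they hold the letters, and in 12.6% of all 32851 such windows. The window of Gadd45b, which lies on the same side, held none. Windows of the list members outside these 6 genes were not searched. Genes listed as TEAD targets are likely to hold the letters, so the shares cannot be weighed against each other. Capitals mark the letters, which read CATTCC where the match is on the other strand.
Ccn1 (chr3:145649986-145650235, minus strand): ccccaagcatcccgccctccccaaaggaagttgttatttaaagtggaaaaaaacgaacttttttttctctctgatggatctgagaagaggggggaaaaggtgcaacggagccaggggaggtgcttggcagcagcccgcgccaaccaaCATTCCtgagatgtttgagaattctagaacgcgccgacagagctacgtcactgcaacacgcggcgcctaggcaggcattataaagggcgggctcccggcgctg
Ankrd1 (chr19:36119845-36120094, minus strand): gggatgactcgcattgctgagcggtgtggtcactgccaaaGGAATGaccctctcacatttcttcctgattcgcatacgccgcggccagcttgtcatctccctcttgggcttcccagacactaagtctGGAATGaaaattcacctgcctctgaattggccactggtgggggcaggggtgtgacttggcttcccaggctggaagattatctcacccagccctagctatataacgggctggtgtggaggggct
Ajuba (chr14:54577662-54577911, minus strand): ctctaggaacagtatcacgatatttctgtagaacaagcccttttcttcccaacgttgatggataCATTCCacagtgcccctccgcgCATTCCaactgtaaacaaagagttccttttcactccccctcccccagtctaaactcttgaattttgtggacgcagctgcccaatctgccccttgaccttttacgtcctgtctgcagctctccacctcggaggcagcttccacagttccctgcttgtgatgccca
Axl (chr7:25788734-25788983, minus strand): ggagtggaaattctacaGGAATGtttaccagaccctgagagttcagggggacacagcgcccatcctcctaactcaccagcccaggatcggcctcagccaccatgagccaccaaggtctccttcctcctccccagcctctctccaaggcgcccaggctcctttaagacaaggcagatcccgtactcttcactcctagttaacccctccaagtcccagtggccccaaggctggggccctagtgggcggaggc
The match nearest to a start began 103 bases before it in Ccn1, 123 in Ankrd1, 164 in Ajuba and 233 in Axl, and the other match began 210 bases before the start in Ankrd1 and 186 in Ajuba. A match is a description of the letters and no site was measured.

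Ccn1, which encodes a secreted matricellular protein that binds integrins, had the smallest p of the list. It read 468, 322 and 251 in C0 and 1116, 1147 and 1490 in low. All 3 low arrays were more than 2 times as bright as any C0 array, and the means differed 3.69-fold (log2 -1.88, SE 0.53, 95% interval -3.04 to -0.73, limma adjusted p = 0.960). Its relative Ccn2, the connective tissue growth factor gene, read 280, 154 and 82.3 in C0 and 416, 590 and 611 in low (3.48-fold, log2 -1.80, SE 0.57, limma adjusted p = 0.979). Here too the groups did not overlap, though C0 array 1 came within 1.5 times of low array 1. Ankrd1, a stretch-induced nuclear protein gene, read 45.3, 38.9 and 111 in C0 and 155, 242 and 296 in low (log2 -1.94, SE 0.79).
The stress gene Gadd45b read from 158 to 224 in C0 and from 330 to 418 in low. Ajuba, whose product holds the kinases that restrain YAP, lay in a narrow range in C0, from 61.7 to 66.2, and from 86.6 to 180 in low. The receptor kinase gene Axl read from 271 to 369 in C0 and from 378 to 536 in low, so its groups were separate by a small margin only (log2 -0.57).

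Genes of the actin skeleton and of contraction lay on the low side too. Of 35 measured, 6 did not overlap with low brighter (3.6% of all genes) and 0 with C0 brighter, with a median of -0.39. Between arrays of 1 state the list's median had a standard deviation of 0.48. The count was 2 with equal array medians and 5 with quantile normalization. Without the arrays numbered 1 it was 16 with low brighter and 4 with C0 brighter (9.99% and 18.8% of all genes). Tagln, which encodes the actin-binding protein transgelin, read 551, 816 and 979 in C0 and 2105, 3281 and 1635 in low (2.95-fold, log2 -1.56, SE 0.45, limma adjusted p = 0.979). Every low array was at least 1.5 times as bright as the brightest C0 array. Acta2, the smooth muscle actin gene, was among the brightest spots of both states, with 12713, 7691 and 9423 in C0 and 14493, 39377 and 27269 in low (log2 -1.36, SE 0.46). Low array 1 lay close to C0 array 1, and the other low arrays stood well above. The beta-actin gene Actb, averaged over its 3 spots, read 2890, 2451 and 4191 in C0 and 4903, 24831 and 13057 in low (log2 -1.91). The 3 Actb spots had differences of -1.99, -2.06 and -1.69, and the third overlapped between the states. Actb is often used as a loading control, and the arrays carry 3 spots for each of 5 more genes. Gapdh lay at -0.13 and Ywhaz at -0.10, and each turned positive with quantile normalization (0.29 and 0.07), with overlap. Sdf4 lay at -1.50, also with overlap. Hprt lay at 0.44 and did not overlap, with C0 brighter, but it did with equal array medians (0.52) and with quantile normalization (0.61). Actb overlapped with equal array medians.
The gamma-actin gene Actg1 read 832, 2238 and 1277 in C0 and 2560, 5507 and 2863 in low. Wdr1, which helps to take filaments apart, had a difference of -0.68, also without overlap. The myosin light chain gene Myl6 read 1277, 1219 and 2776 in C0 and 2418, 9419 and 6803 in low, where low array 1 overlapped with C0 array 3. The calponin gene Cnn1 was below the limit on C0 array 1 and at 38.4 and 58.1 on the others, and it lay from 97.0 to 106 in low (log2 -2.27).

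**Figure D3:**
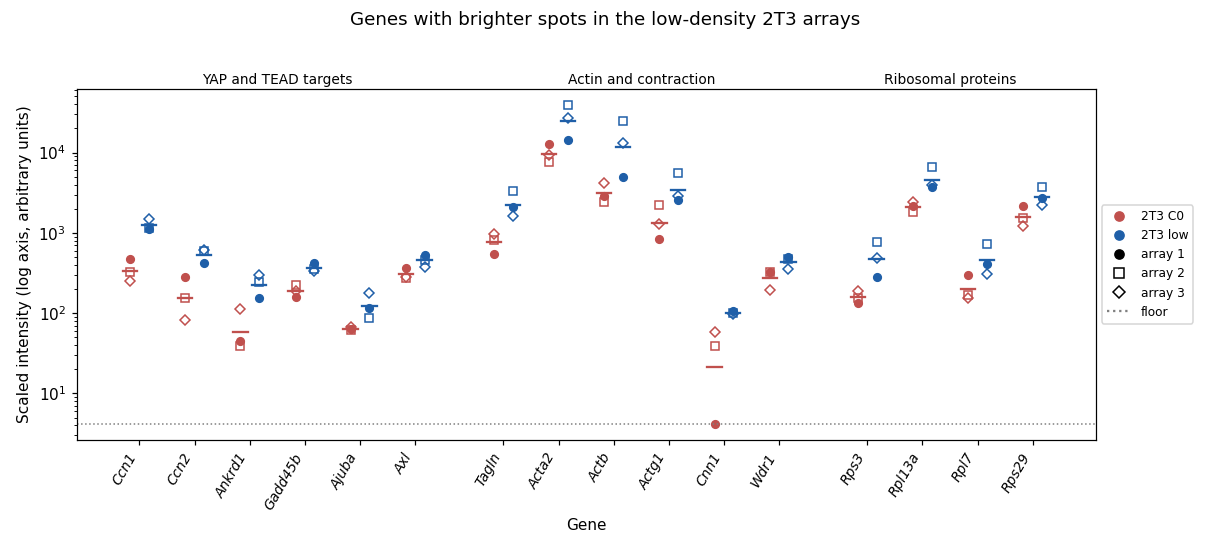
Scaled intensity on a log axis for genes on the low side, in C0 (red) and low (blue), with 1 symbol per array, the geometric mean as a bar and the floor of 4.15 as a dotted line. Ccn1 lies from 251 to 468 in C0 and from 1116 to 1490 in low, while Acta2, Actb and Actg1 spread widely within the low state.

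Ribosomal protein genes, which make the translation machinery, lay on the low side, with 9 of 31 genes that did not overlap (3.6% of all genes) and 0 on the C0 side, and a median of -0.62. Between arrays of 1 state the list's median had a standard deviation of 0.64, so the shift is no larger than that spread. This count rests on the scaling. It was 1 with equal array medians and 4 with quantile normalization, with medians of -0.54 and -0.52. Without the arrays numbered 1 it was 22 of 31 (9.99% of all genes) and the median was -1.04. Rps3 read 133, 156 and 191 in C0 and 284, 764 and 480 in low (log2 -1.57, SE 0.49), and Rpl13a read 2171, 1794 and 2391 in C0 and 3689, 6567 and 3906 in low (log2 -1.12, SE 0.50). Both were brightest on low array 2. Rps29, averaged over 3 spots, read from 1208 to 2144 in C0 and from 2201 to 3712 in low, although each single spot overlapped.
Genes of mitochondrial respiration did not overlap in 5 of 20 cases with low brighter and in 0 with C0 brighter (3.6% of all genes on each side, median -0.45). With low brighter the count was 1 with equal array medians and 3 with quantile normalization. Without the arrays numbered 1 it was 13 (9.99% of all genes). With C0 brighter it was 1 with quantile normalization (4.6% of all genes) and 1 without the arrays numbered 1 (18.8%). The ATP synthase subunit genes Atp5a1 (from 364 to 432 in C0, from 573 to 838 in low) and Atp5b (from 1800 to 3650 in C0, from 4231 to 5495 in low) were among the 5 with low brighter. Heat shock and endoplasmic reticulum stress genes did not overlap in 5 of 27 cases (3.6% of all genes), all with low brighter. The list's median of -0.13 lay close to that of all genes. Cct5, a subunit of the chaperonin that folds actin and tubulin, read 164, 145 and 178 in C0 and 289, 466 and 388 in low (log2 -1.21, SE 0.48). The small heat shock gene Hspb1 read 124, 147 and 140 in C0 and 441, 294 and 228 in low. With equal array medians the heat shock count was 3. Without the arrays numbered 1 it was 15 with low brighter and 3 with C0 brighter (9.99% and 18.8% of all genes). In glycolysis, Aldoa lay from 353 to 414 in C0 and from 723 to 1023 in low (2.32-fold). Of the 23 genes of its list 3 were separate with low brighter and 1 with C0 brighter (3.6% of all genes each). In the list of 12 translation factor genes 1 was separate, with low brighter (3.6% of all genes). It was Fbl, which encodes the nucleolar RNA methyltransferase fibrillarin and is no translation factor (log2 -0.34), and the count was 0 with equal array medians and with quantile normalization.

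Bone and matrix genes lay on both sides. Of 18 osteoblast markers, 3 did not overlap with C0 brighter (3.6% of all genes) and 0 with low brighter, and the median was 0.11. Over the 11 markers above the limit on all 6 arrays the median was -0.45. Between arrays of 1 state the list's median had a standard deviation of 0.45. The count was 1 with equal array medians. Without the arrays numbered 1 it was 7 with C0 brighter and 1 with low brighter (18.8% and 9.99% of all genes). The 3 were Omd, Ptn and Twist1. Ptn, which encodes the secreted growth factor pleiotrophin, read 66.7, 73.7 and 61.0 in C0 and 45.7 on low array 2, with the other low arrays below the limit (log2 2.40, SE 0.82). Its C0 values were tight and its low values scattered. Twist1, a factor that holds back osteoblast maturation, had a difference of 0.70. Of the other defining osteoblast markers, Alpl, Bglap, Dlx5, Msx2 and Pth1r were above the limit on all 6 arrays. Alpl read 79.4, 37.9 and 73.1 in C0 and 299, 16.0 and 34.0 in low, and low array 1 alone was far above the rest. The osteocalcin gene Bglap read 40.5, 251 and 422 in C0 and from 236 to 363 in low (log2 -0.80, SE 1.60). C0 array 1 was the outlying value among the 2T3 arrays there, and the SE also takes in the MLO-Y4 arrays. The bone sialoprotein gene Ibsp was below the limit on 2 C0 arrays and read 32.8 on the third, and from 7.21 to 32.5 in low. The homeobox genes Dlx5 and Msx2 had differences of 0.22 and -0.45 with overlapping groups. Of 8 osteocyte markers 2 were separate with low brighter and 0 with C0 brighter (3.6% of all genes on each side). The 2 were Tnc and the chemokine receptor gene Ackr3. Podoplanin (Pdpn), an early osteocyte marker, lay at 0.10 and Phex was below the limit on all 6 arrays.

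Among proteoglycans, which fill the matrix between collagen fibrils, Omd, Dcn and Gpc6 lay on the C0 side and Has1 on the low side. These are 3 and 1 of 22 measured genes (3.6% of all genes on each side). Decorin (Dcn), which organises collagen fibrils and binds TGF-beta, read 214, 219 and 62.7 in C0 and 39.0, 11.2 and 19.4 in low (7.02-fold, log2 2.81, SE 0.61, 95% interval 1.46 to 4.17, limma adjusted p = 0.386). C0 array 3 lay nearer to the low state than the other C0 arrays did, and still above all of it. The glypican gene Gpc6 read 329, 191 and 133 in C0 and 80.7, 49.7 and 43.7 in low (3.63-fold). Has1, a hyaluronan synthase gene, read 14.3, 101 and 131 in C0 and 381, 620 and 180 in low (log2 -2.60, SE 1.08). In the list of collagens and fibrillar matrix 1 of 37 genes was separate on the C0 side (Col5a1) and 3 on the low side (Fbln2, Tnc and Eln). The share was 3.6% of all genes on each side, and the list's median was -0.02. Fibulin 2 (Fbln2) read 126, 84.1 and 42.6 in C0 and 233, 232 and 150 in low, and tenascin C (Tnc) from 235 to 290 and from 407 to 563. The protease list had 2 of 30 genes on the C0 side and 0 on the low side (3.6% of all genes on each side). The 2 were Adam10 and the antiangiogenic serpin gene Serpinf1 (from 292 to 508 in C0, from 214 to 238 in low).

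The BMP and TGF-beta list had members on both sides, 4 of 44 with C0 brighter and 3 with low brighter (3.6% of all genes on each side). Its receptor Acvr1, a type I receptor for BMPs, read 90.6, 88.7 and 62.7 in C0, and in low it was below the limit on array 1 and at most 29.1 on the others (7.03-fold, log2 2.81, SE 0.70, limma adjusted p = 0.745). The receptor gene Bmpr2 had a difference of 0.86. Id2, a transcriptional inhibitor that BMPs induce, read 54.8, 46.7 and 32.8 in C0, and in low it was above the limit on array 2 alone (log2 2.81, SE 0.89). The BMP antagonist gene Chrd lay from 52.4 to 85.7 in C0 and from 21.5 to 34.0 in low. Smad7, an inhibitor that TGF-beta induces, was on the low side, with 189, 587 and 557 in C0 and 768, 2528 and 1218 in low (log2 -1.75), as were the TGF-beta binding protein gene Ltbp3 (-1.04) and Skil (-0.51).
In the Wnt list 1 of 37 genes was separate on each side, near the 3.6% of all genes. Sfrp2, a secreted modulator of Wnt signalling, read 2878, 2060 and 2014 in C0 and 1133, 715 and 1621 in low (2.09-fold, SE 0.48 on the log2 scale), and Dvl2, a transducer of the signal, read 46.9, 41.5 and 119 in C0 and 180, 127 and 180 in low. Among the FGF, IGF, PDGF, VEGF and EGF families 3 of 45 genes lay on the C0 side and 1 on the low side (3.6% of all genes on each side). Fgf7 read from 220 to 409 in C0 and from 184 to 194 in low, and the receptor gene Igf1r had means of 15.2 in C0 and 36.7 in low. Without the arrays numbered 1, the counts with C0 and with low brighter were 11 and 4 in the BMP and TGF-beta list, 11 and 2 in the Wnt list and 14 and 3 in the growth factor families, where 18.8% and 9.99% of all genes were separate.

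Genes of the cell cycle and DNA replication showed little order. Of 58 measured, 3 did not overlap with C0 brighter and 0 with low brighter (3.6% of all genes on each side), with a median of 0.09. With equal array medians there were 0 with C0 brighter and 1 with low brighter. Without the arrays numbered 1 there were 8 and 7 (18.8% and 9.99% of all genes). The 3 were Cdk2 (from 255 to 342 in C0, from 134 to 175 in low), the centromere histone gene Cenpa and the mitotic factor gene Foxm1. Cyclin D1 (Ccnd1) and cyclin D2 (Ccnd2) had differences of -0.69 (95% interval -1.89 to 0.50) and -0.82 (-2.42 to 0.78), with overlapping groups. Cyclin A2 (Ccna2) read 209, 243 and 171 in C0 and 35.1, 113 and 180 in low, where low array 3 overlapped. Among cell cycle inhibitors and p53 response genes 2 of 22 lay on the C0 side and 1 on the low side (3.6% of all genes each). Gas1, named for its level in growth-arrested cells, read 41.3, 30.6 and 15.5 in C0 and was below the limit on all low arrays, at least 2.41-fold lower there. The kinase inhibitor gene Cdkn2b had a difference of 1.04 and Cdkn1a one of -0.64 with overlap.
Immediate early genes, which answer growth signals within minutes, lay on both sides, with a median of 0.10. The share over all genes was 3.6% on each side. Of the 21 measured, 4 were separate with C0 brighter (Egr3, Nr4a1, Klf10 and Jund) and 1 with low brighter. The counts were the same with equal array medians and with quantile normalization. With the floor at the highest 2T3 limit there were 3 with C0 brighter (3.3% of all genes) and 1 with low brighter. Egr3 read 11.4 on C0 array 2, which is under that floor and under the limits of low arrays 1 and 3. Its separation from those low arrays therefore rests on values under their limits. The nuclear receptor gene Nr4a1 read 236, 166 and 301 in C0 and 25.4, 104 and 112 in low (3.42-fold, log2 1.77, SE 0.62). Jund read 5096, 3969 and 4516 in C0 and 2114, 1462 and 2397 in low. Dusp1, a phosphatase gene that switches off MAP kinases, was the member on the low side, with 144, 170 and 191 in C0 and 432, 492 and 699 in low (3.17-fold, log2 -1.66, SE 0.64).

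Output genes of the circadian clock lay on the C0 side. Of 14 measured, 3 did not overlap with C0 brighter (3.6% of all genes) and 0 with low brighter, with a median of 0.45. Between arrays of 1 state the list's median had a standard deviation of 0.39. With equal array medians there were 2 and with quantile normalization 3, and without the arrays numbered 1 there were 9 of 14 (18.8% of all genes). Dbp, a clock-driven transcription factor, read 493, 189 and 255 in C0 and 101, 56.1 and 29.1 in low (5.25-fold, log2 2.39, SE 0.63, limma adjusted p = 0.819). All C0 arrays were above the brightest low array. Tef, a factor of the same family, read 189, 167 and 228 in C0 and 118, 119 and 82.5 in low (log2 0.88). The clock repressor gene Nr1d2 read 172, 103 and 57.5 in C0 and 45.5, 30.5 and 38.8 in low (log2 1.41). The period genes Per1 and Per2 had differences of 0.05 and 0.75 with overlap. The letters CACGTG, an E-box that clock factors bind, were in the 250 bases before both Tef starts of the table, 1 match each, and not in those of Dbp and Nr1d2, and in 6.02% of all windows. They read the same on both strands. The hour of harvest is unknown here, and clock phase and density cannot be told apart in these values.

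**Figure D4:**
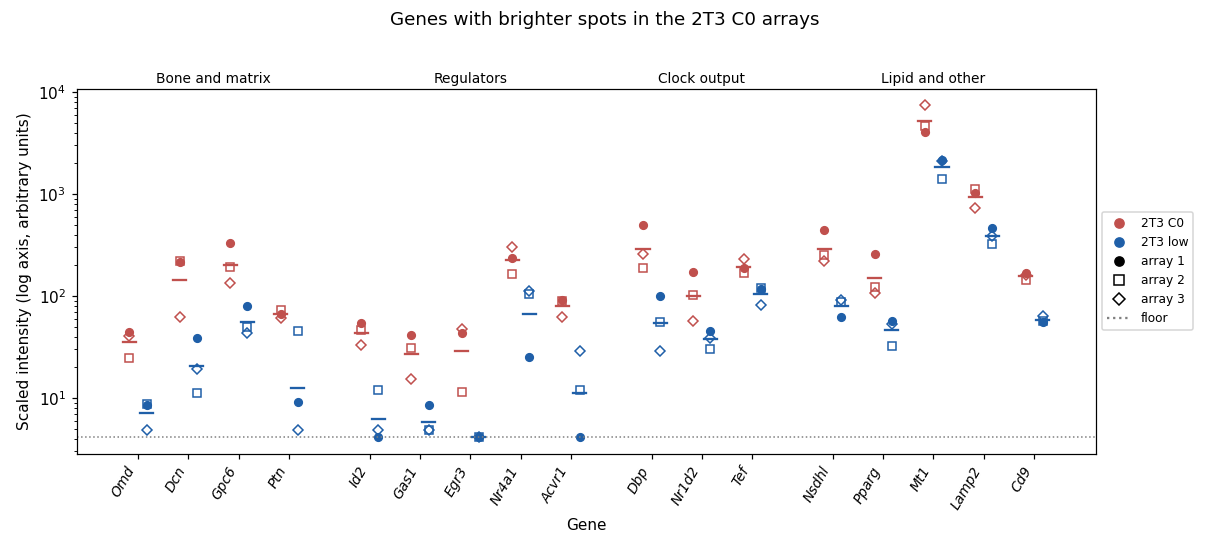
Scaled intensity on a log axis for genes on the C0 side, in C0 (red) and low (blue), with 1 symbol per array, the geometric mean as a bar and the floor of 4.15 as a dotted line. Dbp, Tef, Nr1d2, Mt1, Lamp2 and Cd9 lie well above the floor in both states, whereas Omd, Id2, Gas1 and Egr3 reach or approach it in low.

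Several metabolic genes with bright spots also lay on the C0 side. Of 10 genes of sterol and fatty acid synthesis 2 did not overlap, both with C0 brighter (3.6% of all genes). Nsdhl, an enzyme of cholesterol synthesis, read 442, 255 and 220 in C0 and 62.4, 87.4 and 92.2 in low (3.66-fold, log2 1.87, SE 0.55), and the desaturase gene Scd1 read from 1472 to 1991 and from 822 to 1378. The metallothionein gene Mt1, which binds zinc and other metals, read 4073, 4609 and 7397 in C0 and 2161, 1405 and 2106 in low (2.79-fold, log2 1.48, SE 0.47). It was 1 of 3 genes on the C0 side among 41 of the antioxidant and detoxification list, with 1 on the low side (3.6% of all genes on each side). Lamp2, a protein of the lysosomal membrane, read 1029, 1128 and 729 in C0 and 470, 321 and 388 in low (log2 1.28, SE 0.40), and was 1 of 3 of 27 lysosome genes on that side, with Tpp1 and Psap. Equal array medians left 1 lysosome gene and 1 sterol gene separate, both with C0 brighter. Over all genes the C0 side held 3.6%, and 3.19% with equal array medians. The tetraspanin gene Cd9 varied little within each state, with 170, 143 and 161 in C0 and 55.9, 56.9 and 63.1 in low (2.69-fold, log2 1.43, SE 0.41). It was the 1 of 21 focal adhesion and integrin genes that did not overlap (3.6% of all genes). N-cadherin (Cdh2), an adhesion gene of osteoblast contacts, was on the other side, with 11.9, 24.9 and 54.1 in C0 and 75.5, 108 and 77.6 in low (log2 -1.77, SE 0.60). It was the 1 of 22 cadherin and junction genes without overlap (3.6% of all genes).

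Markers of other cell types were measured beside these groups. The median over the list of 10 adipocyte markers was -0.32. Of these, 3 did not overlap with C0 brighter and 0 with low brighter (3.6% of all genes on each side). The 3 were Pparg, Cebpb and Slc2a4. Cebpd (log2 -1.93) and Lep (-1.71) had the opposite sign, with overlap. Their summed scaled intensity was 357 to 524 in C0 and 344 to 673 in low, and the defining marker Cebpa was below the limit on all 6 arrays. Pparg, the master regulator of fat cell formation, read 258, 123 and 108 in C0 and 57.2, 32.1 and 53.4 in low (log2 1.71, SE 0.70). With equal array medians 1 adipocyte marker lay on each side (3.19% and 2.69% of all genes). The same held with quantile normalization (4.6% and 2.91% of all genes). Of 20 macrophage and osteoclast markers 3 did not overlap, all with low brighter (3.6% of all genes). They were Tyrobp, an adaptor of myeloid receptors (19.1, 46.7 and 108 in C0 and 273, 150 and 141 in low), and the complement genes C1qb and C1qa. The summed intensity of the list was 414 to 511 in C0 and 636 to 1093 in low. Among the defining markers, Acp5 was below the limit on all 6 arrays, and Csf1r and Calcr on all but 1. Cd68 was above it on all 6 (log2 -0.24), and Cd14 on 3 C0 and 2 low arrays (log2 1.10), both with overlap. The part of such cells in any difference was not tested. Of 14 muscle markers 1, Tnnc1, was separate with low brighter (3.6% of all genes), with summed intensity of 241 to 1086 in C0 and 689 to 2053 in low. Neither the 15 chondrocyte nor the 13 endothelial markers held a gene without overlap. Of 34 cytokine and chemokine genes 1 lay on the low side, Mif (from 4274 to 5573 in C0, from 9020 to 12964 in low). Of 28 interferon and antigen presentation genes 1 did, Irf1. Both counts (2.94% and 3.57%) lie near the 3.6% of all genes.

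**Figure D5:**
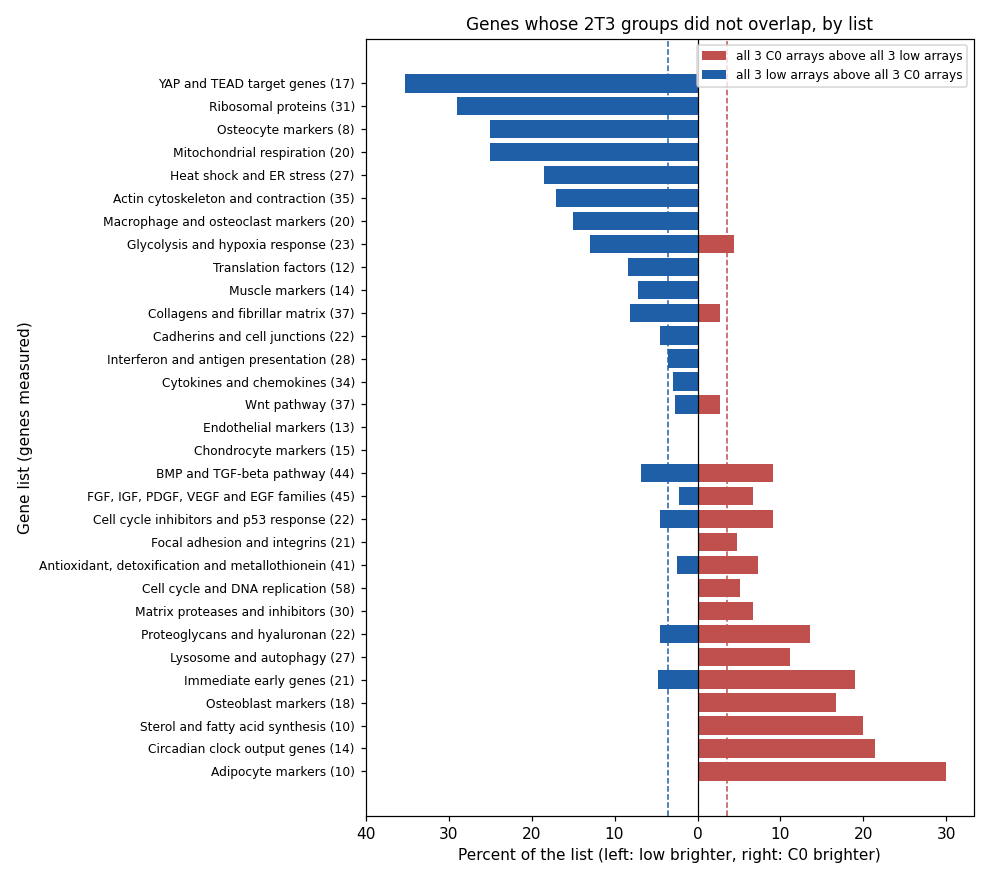
Share of the measured genes of each of the 31 lists whose 3 arrays of one state all lay above the 3 of the other, with C0 brighter to the right (red) and low brighter to the left (blue). Dashed lines mark the share over all 4605 genes, 3.6% on either side, and lists with few genes take large steps.

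The density difference of the osteoblast line was set against that of MLO-Y4, high minus low, by the difference of both in the same fit. No spot passed (0 of 5030, 0% called, smallest limma adjusted p = 0.598, 105 spots at an unadjusted p under 0.05). For Ccn1 the differences were -1.88 in 2T3 and -0.61 in MLO-Y4, for Tagln -1.56 and -0.48, for Dbp 2.39 and -0.59, and for Dcn 2.81 and 0.93. None of these 4 gene differences was shown to differ between the lines.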

How the data were processed

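Total RNA of the 2T3 and MLO-Y4 lines was measured on 12 arrays, 3 per group. The deposited values are linear spot intensities read as such from the values, since they are whole numbers that go below 0. A background had therefore been subtracted from the deposited intensity, and no normalization between arrays was visible. The scanner software and the way the background was taken are not stated. A platform annotation table listed 4638 of the 5030 spots, 4633 with 1 symbol and 5 with several. Entrez identifiers gave the current RefSeq symbol for 4624 spots, 9 spots kept the given symbol, and 392 spots were unnamed here. This left 4605 genes, averaged over their spots on the log2 scale for lists.

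Each array was divided by its median over the 1253 spots above the limit on all 12 arrays, because the plain median of a dim array is a background reading. The floor, the 25th percentile of scaled values, was 4.15. Log2 values were fitted with limma 3.58.1 in R 4.3.3 (lmFit with 4 group means, 8 residual degrees of freedom, eBayes), and the script was tested on simulated data. Differences are C0 minus low, and SE is limma's moderated standard error. A spot below the limit on all arrays of a state has a bound, the brighter mean over the mean of the dimmer arrays' limits or own values where higher.

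Genes were named by rule: the 10 smallest p in each direction where fewer than 10 passed, up to 4 members of each of 31 lists, and a fixed set. Not all list members so chosen are described, and further members that did not overlap were named after their values were seen. The members, lists and rule were chosen with earlier results of these data known, and no list was tested as a set. Alternatives were other scalings, floors, filters and fits, the replicate block, and leaving out each 2T3 array. The arrays numbered 1 were left out together, and higher floors combined with other scalings, only after the data were seen. RefSeq promoter windows are of build GRCm38.p6.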

Additional observations from a re-analysis of the deposited data

How the results depend on the processing

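The count of spots past the threshold was 0 with equal array medians, quantile normalization, the dim-spot filter (3498 spots), the 2T3 arrays only, the trend and robust prior, and without any 1 of the 6 2T3 arrays (0 to 0). It was 5 with the floor at the 40th percentile and 6 with the floor at the highest 2T3 limit. Combined with the former floor it was 2 with equal array medians and 2 with quantile normalization, settings chosen after the data were seen, and Barx1 and S1pr3 were the spots called in both. A higher floor sets more values equal and so narrows the spread. Without both arrays numbered 1 it was 0 (smallest limma adjusted p = 0.0557). The count for the difference between the lines was 2 and 1 with the higher floors and 0 in the main fit.

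The replicate numbers were checked for pairing. Same-numbered C0 and low arrays had correlations of their deviations from the group means of 0.084, 0.108 and 0.128. Every other combination was lower, from -0.123 to 0.041. Deviations within a state sum to 0 for each spot, so the combinations cannot all be positive and part of this contrast is built in. What a shared number stands for is not stated. With the replicate block 0 spots passed and 342 had an unadjusted p under 0.05, against 219 without it.

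Over 144 named genes, 2407 values under alternatives were compared with the main ones. Of these 26, in 12 genes, had the opposite sign. Spots at the floor throughout gave no value. Phex lay at 0.15 with equal array medians and 0.17 with quantile normalization, and Gapdh at 0.29 with quantile normalization under both floors. Without 1 array in turn, Phex ranged from -0.52 to 0.36, Gapdh from -0.32 to 0.042, Alpl from -0.74 to 1.37, Pdpn from -0.24 to 0.50, Dlx5 from -0.048 to 0.66, Ccnd2 from -1.30 to 0.11, Icam2 from -0.11 to 1.68, Eif3a from -0.13 to 0.65, Bglap from -1.49 to 0.20, Eif3c from -0.75 to 1.10 and Acsl4 from -0.22 to 1.05. Without both arrays numbered 1, Bglap lay at 0.38 and Eif3c at -0.80. Acsl4 lay at -0.064 and -0.055 with the 40th percentile floor and equal medians or quantile normalization. Col11a2 lay at -0.0040 under the last of these. Signal over background limits what can be read from dim genes.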
